A study of Mus musculus with 6 samples.

Results

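The proteasome is the protease complex that breaks down ubiquitin-tagged proteins, and the genes described here encode its subunits, activators, an inhibitor and assembly factors, along with 2 genes named after a proteasome gene whose product they bind. They are the protein-coding genes of the count table whose symbol starts with Psma to Psmg followed by a digit, and 50 of the 17145 genes in the table met this rule. Of these 50 genes, 41 had at least 10 unique molecular identifiers (UMIs, 1 per captured transcript) over the 6 libraries and were tested, and 9 had fewer. *Psmb7* had no entry in the count table and was not analysed here.

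The samples were small areas of mouse heart sections labelled as cardiomyocytes, from mice labelled female and of the Ndufs6 knockdown genotype (FS6KD). This is a gene-trap model of mitochondrial cardiomyopathy, in which loss of a respiratory complex I subunit is strongest in the heart, on a mixed C57BL/6J and 129/Ola background. The age of the mice behind these libraries is not given in the sources used here, and no library came from a mouse without the knockdown. Areas with high or low Atf3 protein, a stress-induced transcription factor, were picked by antibody staining, and light uncaged the primers with which their RNA had been reverse transcribed in the section (photo-isolation chemistry), giving 3 Atf3_high and 3 Atf3_low libraries. The comparison asks how the transcriptomes of areas with more and with less Atf3 protein differ.

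The 26S proteasome consists of a barrel-shaped core with outer alpha rings and inner beta rings, in which some beta subunits cut proteins, and a regulatory particle that binds, unfolds and feeds in the substrate. Interferon can exchange the cutting subunits for immunoproteasome forms, other activators can replace the regulatory particle, and dedicated chaperones assemble the rings and the regulatory base. In heart muscle the complex removes misfolded contractile and mitochondrial proteins, and its subunit genes are known to be induced together by the transcription factor Nfe2l1 when proteasome capacity falls short.

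Depth was low and uneven. The Atf3_high libraries held 184872, 81117 and 210588 UMIs for replicates 1, 2 and 3, and the Atf3_low libraries held 171536, 125522 and 81917, and all values below follow this order. Proteasome genes contributed 842, 308 and 789 UMIs in Atf3_high and 567, 382 and 260 in Atf3_low, so that many single genes rest on a few molecules per library. Levels are given in CPM, the UMIs of a gene scaled to a common library size (the UMIs of tested genes in a library times its factor from the trimmed mean of M-values, TMM), with SDs over the 3 libraries of a group, and fold changes are log2 of Atf3_high over Atf3_low. In a library of 81117 UMIs a count of 0 allows a level of up to 37.0 CPM before TMM scaling (3 UMIs), against 14.2 CPM in the library of 210588 UMIs. The study calls the libraries biological replicates, but the labels name no animals. The p-values therefore measure the spread between these libraries only, and the labels do not tell whether a high and a low area came from the same mouse.

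One library went against its label. Atf3_high replicate 2 held 8 UMIs of *Ddx3y* and 8 of *Eif2s3y*, both on the Y chromosome, and 0 of *Xist*, the RNA of the inactive X chromosome, although it is labelled female. The other 5 libraries held 26, 12, 3, 13 and 7 UMIs of *Xist* and at most 1 of either Y-linked gene. By these counts Atf3_high replicate 2 differs in sex from the Atf3_low libraries and so shares no mouse with them, which for Atf3_low replicate 1 rests on 3 UMIs of *Xist* beside 1 of *Ddx3y*. Sharing among the other libraries is not known. The calls, the medians over the proteasome genes and the subclass sums are therefore also given without Atf3_high replicate 2. *Atf3* itself, whose protein chose the areas, had 50, 7 and 25 UMIs in Atf3_high and 35, 0 and 8 in Atf3_low. In CPM it stood at 254, 84.5 and 116 against 236, 0 and 109, so its RNA overlapped between the groups. *Ndufs6*, the knocked-down gene, had 2, 0 and 3 UMIs against 0, 0 and 0.

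Cardiomyocyte markers were abundant in every library and markers of other cell types were present too. The 9 cardiomyocyte markers tested summed to 22962, 23643 and 44022 CPM in Atf3_high and 45034, 49688 and 59925 CPM in Atf3_low, with *Myl2* the most abundant. All 9 had a negative fold change, 4 of them at an unadjusted p under 0.05, and *Myh6* passed the adjusted threshold. The 8 fibroblast markers summed to 5213, 2788 and 1113 CPM against 2588, 1493 and 531 CPM, led by *Col3a1*. All 8 had a positive fold change, 3 of them (*Postn*, *Col1a2* and *Col3a1*) at an unadjusted p under 0.05. The endothelial (7 genes tested, median log2 fold change 0.07), macrophage and leukocyte (6, 0.07), mural (6, 0.80) and erythrocyte (1, −0.12) lists held no gene at an unadjusted p under 0.05, and their sums overlapped between the groups. Their most abundant genes were *Fabp4*, *Lyz2*, *Rgs5* and *Hbb-bs*. *Ptprc*, the marker of leukocytes in general, had 0 UMIs in all 3 Atf3_high libraries and 3, 0 and 0 in Atf3_low. In areas of mixed cells, a smaller share of cells of a type and less RNA per cell cannot be told apart, and the part of these markers in the proteasome values was not tested.

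None of the 41 genes tested passed an adjusted p of 0.05, where edgeR was run in its quasi-likelihood form and p-values were adjusted over 7665 genes by the method of Benjamini and Hochberg. Of all genes 7 (0.0913%) passed, 3 higher and 4 lower in Atf3_high, and the split was 4 and 3 with library size alone and 3 and 9 in DESeq2. The smallest adjusted p of the 41 proteasome genes was 0.768 in edgeR. Limma-trend also called 0 of the 41 and 3 of all genes. DESeq2 called 12 of all genes and 0 of the 19 proteasome genes to which its filter on low means gave an adjusted p, and the 22 without one, *Psmg3* and *Psmd5* among them, could not be called. At an unadjusted p under 0.05, 2 of the 41 were higher in Atf3_high, against 3.55% of all genes tested, and 0 were lower, against 2.24%. The 2 were the assembly chaperone genes *Psmg3* and *Psmd5*. The count of higher genes was 0 without Atf3_high replicate 1 and 1 (*Psme3*) without Atf3_high replicate 2. It was 4 without Atf3_low replicate 1 (*Psmd3*, *Psma5*, *Psmd5* and *Psmg3*), and 0 without Atf3_low replicate 2 or without Atf3_low replicate 3. In DESeq2 it was 1 (*Psmg3*) and in limma-trend 3 (*Psmd3*, *Psmd5* and *Psmg3*). The 7 calls among all genes became 3, 1 and 18 without Atf3_high replicate 1, 2 and 3, and 3, 6 and 1 without Atf3_low replicate 1, 2 and 3.

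As a set, the proteasome genes lay close to the rest of the transcriptome. Their median fold change was 0.18 on the log2 scale against 0.11 for all genes tested, and 26 of the 41 were above 0, where 55.2% of all genes were. Scaling by library size alone moved the median of all genes to 0.31 and that of the proteasome genes to 0.39. Without Atf3_high replicate 1, 2 or 3 the proteasome median was 0.18, 0.23 or 0.19, beside 0.0394, 0.12 or 0.0536 for all genes. Without Atf3_low replicate 1, 2 or 3 it was 0.32, 0.16 or 0.12, beside 0.21, 0.18 or 0.0665. The proteasome median thus fell below that of all genes without Atf3_low replicate 2, as it did with no filter on low counts (0.28 against 0.35), while with edgeR's own stricter filter (filterByExpr) the medians were 0.18 and 0.00997. Of the 41, 6 had 10 or more UMIs in Atf3_high and fewer in Atf3_low (*Psmb2*, *Psmd5*, *Psmg1*, *Psmg2*, *Psmg3* and *Psmg4*) and none the other way round, and such genes are favoured by the filter when they are higher in Atf3_high, so these counts and medians are descriptions only. The SE of a single gene's fold change ranged from 0.48 to 1.45, with a median of 0.65.

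The 50 genes together summed to 4278, 3717 and 3675 CPM in Atf3_high (mean 3890.2 ± 337) and to 3821, 3187 and 3541 CPM in Atf3_low (3516 ± 318). The groups overlapped, and the log2 ratio of the means was 0.15 (0.18 without Atf3_high replicate 2, 0.0720 without Atf3_high replicate 1 and 0.0528 without Atf3_low replicate 2). As a plain percentage of each library's UMIs the same genes made up 0.455%, 0.380% and 0.375% against 0.331%, 0.304% and 0.317%. On that scale the groups were apart, since TMM scaled the Atf3_high libraries by factors of 1.10, 1.06 and 1.06 and the Atf3_low libraries by 0.889, 0.987 and 0.918. Whether the groups of whole-complex sums overlapped therefore depended on the scaling, although the log2 ratio was positive under both (0.36 with library size alone).

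**Figure D1:**
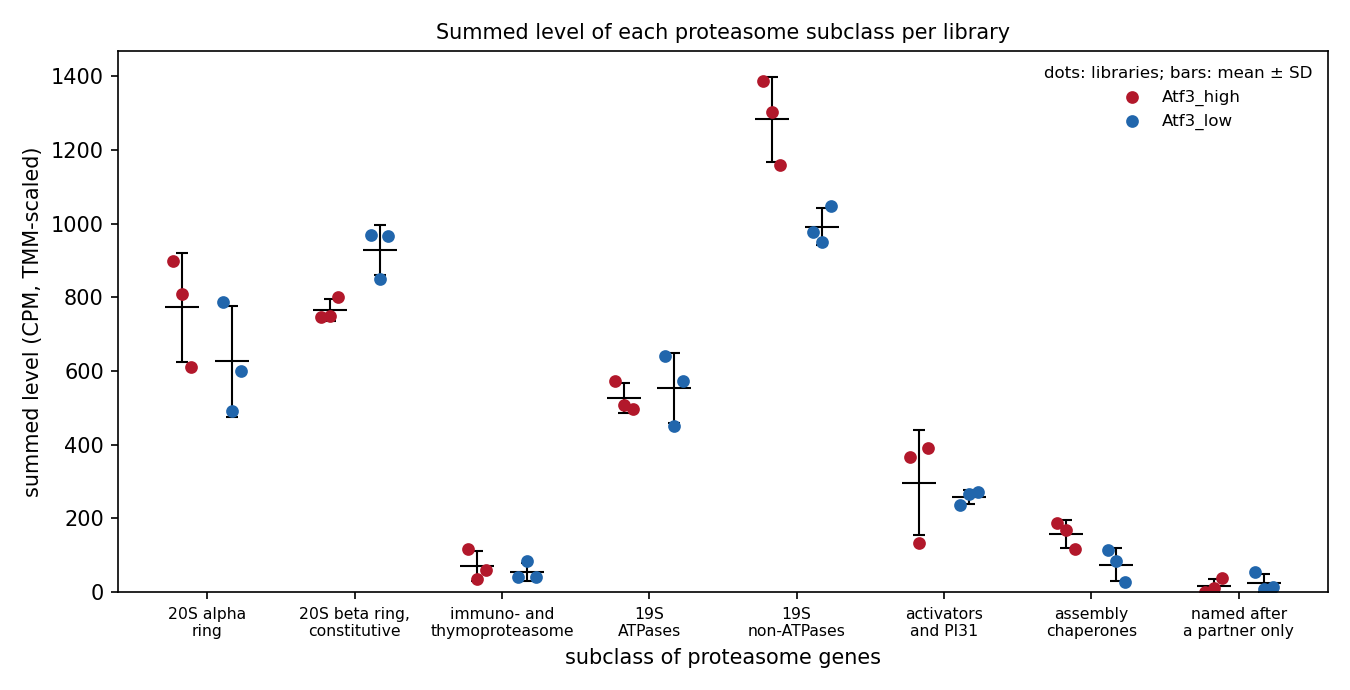
Summed level of each proteasome subclass in each library, in CPM of the TMM-scaled library size, with dots for the 3 Atf3_high (red) and 3 Atf3_low (blue) libraries and bars for mean ± SD. The 20S beta ring lies at 747 to 801 CPM in Atf3_high and 851 to 970.4 CPM in Atf3_low, the 19S non-ATPases at 1159.8 to 1387 against 951 to 1049 CPM, and the other subclasses overlap or, for the assembly chaperones, nearly touch.

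The alpha ring closes the core and gates the entry of substrate. Its 8 genes summed to 899, 809 and 610.2 CPM in Atf3_high and 788, 492 and 599 CPM in Atf3_low, a log2 ratio of 0.30. The groups overlapped, and the ratio was 0.52 with library size alone. With a library left out it was 0.18 without Atf3_high replicate 1, 0.27 without Atf3_high replicate 2, 0.13 without Atf3_low replicate 2 and 0.50 without Atf3_low replicate 1. Of the 7 alpha genes tested, 5 had a positive and 2 a negative fold change, and none reached an unadjusted p of 0.05. *Psma1*, the alpha gene with the most UMIs, stood at 198, 145 and 196 CPM against 283, 41.7 and 123 CPM, a fold change of 0.25 (SE 0.54). Its highest and its lowest value were both in Atf3_low, so the spread within that group exceeded the difference between groups. *Psma7*, the alpha gene with the smallest p among those lower, stood at 107, 72.4 and 93.2 CPM against 33.7, 142 and 232 CPM (−0.48, SE 0.61), and here Atf3_low again held both extremes. *Psma5* was uneven in both groups, with 38, 6 and 6 UMIs in Atf3_high and 21, 4 and 0 in Atf3_low. The testis form *Psma8* had 5 UMIs, all in Atf3_high replicate 1.

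The beta ring holds the cutting sites, and its constitutive genes were the one subclass in which every Atf3_high sum lay below every Atf3_low sum. *Psmb7*, a cutting subunit of the same ring, had no entry in the count table, so the sum, share and ratios of the beta ring lack it. Why it is missing, and whether its UMIs were counted under another gene, is not known. The 6 beta ring genes summed to 747, 748 and 801 CPM in Atf3_high (765 ± 30.9) and to 970.4, 851 and 967 CPM in Atf3_low (929 ± 68.0). The log2 ratio was −0.28, and it was −0.26 without Atf3_high replicate 2. Without *Psmb4*, the gene of the ring with the most UMIs, it was −0.23 and the sums of the groups overlapped. Scaled by library size alone the ratio was −0.07 and the groups overlapped. As a share of all proteasome UMIs in a library, which does not depend on scaling, the beta ring took 17.5% (Wilson 95% interval 15.04% to 20.2%), 20.1% (16.03% to 25.0%) and 21.8% (19.1% to 24.8%) in Atf3_high. In Atf3_low it took 25.4% (22.0% to 29.1%), 26.7% (22.5% to 31.4%) and 27.3% (22.3% to 33.0%). The shares did not overlap between the groups, although the intervals, which cover counting error only, did for several pairs of libraries. Without *Psmb4* the shares overlapped too. A share also moves when other subclasses move, so it does not by itself show a change in the subclass named.

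Within the beta ring, 4 of the 6 genes had a negative fold change. *Psmb3*, a structural subunit, stood at 71.1, 145 and 130.4 CPM in Atf3_high against 289.8, 125 and 149.8 CPM in Atf3_low (−0.75, SE 0.53, adjusted p = 0.966 in edgeR). The difference came largely from Atf3_low replicate 1, without which the fold change was −0.27, and it was −0.48 without Atf3_high replicate 1. Near-identical pseudogene copies of *Psmb3* in the count table held 33 UMIs (*Gm6467*) and 4 UMIs (*Gm4950*), and with their counts added the fold change was −0.44. *Psmb1*, another structural subunit, stood at 137, 96.5 and 116 CPM against 236, 133 and 163 CPM (−0.59, SE 0.52, adjusted p = 0.996 in edgeR), and its groups overlapped only through the 137 and 133 CPM of Atf3_high replicate 1 and Atf3_low replicate 2. Without Atf3_low replicate 1 its fold change was −0.32. *Psmb4*, with 203 UMIs the best covered of all 50 genes, stood at 299.8, 157 and 205 CPM against 162, 242 and 463 CPM (−0.33, SE 0.48), an overlapping spread with its highest value in Atf3_low replicate 3. *Psmb2* went the other way, at 35.6, 72.4 and 46.6 CPM against 20.2, 33.4 and 27.2 CPM (0.88, SE 0.91), and its groups were apart on 23 and 9 UMIs. Over all proteasome genes, 6 of the 41 tested were apart with Atf3_high above, a pattern of 7.07% of all genes, and 0 with Atf3_high below, against 3.89%. The 6 were *Psmb2*, *Psmc5*, *Psmd3*, *Psmd11*, *Psmd5* and *Psmg3*. Of these, *Psmb2*, *Psmd5* and *Psmg3* reached 10 UMIs only through Atf3_high, so the count is no measure against all genes.

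The catalytic subunits and their interferon-induced replacements were compared next. *Psmb5*, the chymotrypsin-like subunit, stood at 50.8, 96.5 and 83.8 CPM in Atf3_high and 87.6, 75.1 and 109 CPM in Atf3_low (−0.24, SE 0.64). *Psmb6*, the caspase-like subunit, stood at 152, 181 and 219 CPM against 175, 242 and 54.5 CPM (0.19, SE 0.52). Both overlapped between the groups, and without Atf3_high replicate 1 the fold change of *Psmb5* was −0.0021. *Psmb8*, which replaces *Psmb5* in the immunoproteasome, had 3, 0 and 4 UMIs in Atf3_high and 1, 0 and 0 in Atf3_low. Of the UMIs of the 2 genes pooled over a group, it made up 16.3% in Atf3_high (7 UMIs beside 36, exact 95% interval 6.81% to 30.7%) and 3.23% in Atf3_low (1 beside 30, 0.0816% to 16.7%). These shares leave out a near-identical pseudogene copy of *Psmb5* (*Gm3375*, 98.9% identical over 796 bases), which held 10 UMIs in the count table. *Psmb9*, which replaces *Psmb6*, had 3, 0 and 1 against 1, 0 and 0 UMIs, or 4.17% (1.15% to 10.3%) against 1.67% (0.0422% to 8.94%) of the pair. The intervals are for UMIs pooled over libraries and cover counting error only, and the difference between the groups was not tested. *Psmb10*, the replacement of the trypsin-like subunit, was the only immunoproteasome gene tested, at 86.4, 36.2 and 32.6 CPM against 27.0, 83.4 and 40.9 CPM (0.07, SE 0.79), with overlapping groups. The thymus form *Psmb11* had 1 UMI, in Atf3_high replicate 3.

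The 4 immuno- and thymoproteasome genes summed to 117, 36.2 and 60.6 CPM in Atf3_high and 40.4, 83.4 and 40.9 CPM in Atf3_low, and the groups overlapped. The log2 ratio of 0.38 was 0.57 with library size alone and 2.12 without *Psmb10*, on the few UMIs of *Psmb8*, *Psmb9* and *Psmb11*. With a library left out it was −0.18, 0.69 and 0.48 without Atf3_high replicate 1, 2 and 3, and 0.20, 0.78 and 0.20 without Atf3_low replicate 1, 2 and 3. Genes of the interferon response and antigen presentation, which respond to the same signals as the immunoproteasome, were looked at as a list. Of 16 such genes 13 were tested, 10 had a positive and 3 a negative fold change, the median was 0.67, and none reached an unadjusted p of 0.05. Much of this came from Atf3_high replicate 1, since the list summed to 2292, 1436 and 894 CPM in Atf3_high and 1435, 951 and 858 CPM in Atf3_low, and without that library the median was −0.70. *Ifit3*, an interferon-induced RNA-binding protein with the smallest p of the list, had 55, 2 and 1 UMIs in Atf3_high and 11, 0 and 0 in Atf3_low.

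The regulatory particle has a base ring of 6 ATPases, which unfold the substrate and push it into the core. The ATPase genes summed to 574, 507 and 498 CPM in Atf3_high and 640.2, 450.5 and 572 CPM in Atf3_low. The groups overlapped, and the log2 ratio of −0.07 became 0.14 with scaling by library size alone and 0.0424 without Atf3_low replicate 1. It was −0.14 without Atf3_high replicate 1 and −0.23 without Atf3_low replicate 2, and nearer to 0 without Atf3_high replicate 2 (−0.0475) or 3 (−0.0361). As a share of proteasome UMIs the ATPases took 13.4% (Wilson 95% interval 11.3% to 15.9%), 13.6% (10.2% to 17.9%) and 13.6% (11.3% to 16.1%) in Atf3_high. In Atf3_low they took 16.8% (13.9% to 20.1%), 14.1% (11.0% to 18.0%) and 16.2% (12.2% to 21.1%), so the shares were apart with Atf3_high below, within overlapping intervals. Since a share also falls when other subclasses rise, it does not show that the ATPase level was lower. Fold changes were positive for 3 and negative for 3 of the 6. *Psmc2*, the ATPase gene with the most UMIs, stood at 132, 181 and 79.2 CPM against 182, 66.7 and 123 CPM, a fold change of 0.02 (SE 0.57). *Psmc3* stood at 86.4, 60.3 and 116 CPM against 115, 83.4 and 191 CPM (−0.48, SE 0.58). Neither separated the groups, and the fold change of *Psmc3* was −0.14 without Atf3_low replicate 3. *Psmc5* did, at 86.4, 48.3 and 65.2 CPM in Atf3_high and 47.2, 25.0 and 27.2 CPM in Atf3_low (0.98, SE 0.79, adjusted p = 0.986 in edgeR), but its lowest Atf3_high and highest Atf3_low values rest on 4 and 7 UMIs.

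The non-ATPase subunits make up the lid and the scaffold of the regulatory particle and include its ubiquitin receptors. Those under the symbol rule summed to 1387, 1303 and 1159.8 CPM in Atf3_high (1283 ± 115) and 977, 951 and 1049 CPM in Atf3_low (992 ± 50.6). Every Atf3_high library lay above every Atf3_low library, at a log2 ratio of 0.37. The ratio was 0.58 with library size alone, 0.36 without Atf3_high replicate 2 and 0.31 without *Psmd8*, the member with the most UMIs. Of the 11 genes, all tested, 8 had a positive and 3 a negative fold change. Their share of proteasome UMIs was 32.4% (Wilson 95% interval 29.3% to 35.7%), 35.1% (29.9% to 40.5%) and 31.6% (28.4% to 34.9%) in Atf3_high. It was 25.6% (22.2% to 29.3%), 29.8% (25.5% to 34.6%) and 29.6% (24.4% to 35.4%) in Atf3_low. The shares of the groups were apart, but their nearest values, 31.6% and 29.8%, lie within each other's counting intervals. Sum and shares lack *Sem1* (−0.38, SE 0.46) and *Adrm1* (−0.18, SE 1.10), regulatory particle genes of other names that ran opposite to the sum. *Sem1* stood at 264, 145 and 284 CPM against 398, 192 and 327 CPM. With both genes added, the sums and shares of the groups stayed apart, each by a narrower gap.

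Among the lid genes, *Psmd3* (chromosome 11, 98682554 to 98695979, plus strand, GRCm38) had the smallest p, at 122, 229 and 130.4 CPM in Atf3_high and 94.3, 50.1 and 68.1 CPM in Atf3_low (1.12, SE 0.58, adjusted p = 0.912 in edgeR). All 3 Atf3_high libraries were above all 3 Atf3_low libraries, and without Atf3_high replicate 2, the highest, the fold change was 0.81. *Psmd11*, a lid subunit that joins the lid to the core, stood at 254, 266 and 163 CPM against 155, 125 and 136 CPM (0.69, SE 0.50, adjusted p = 0.969 in edgeR), again apart, with 163 and 155 CPM as the nearest values. A copy of *Psmd11* elsewhere in the genome (*A730017L22Rik*, 97.9% identical over 1501 bases, on the opposite strand) held 31 UMIs, and the fold change was 0.67 with these added. *Psmd8*, with 183 UMIs, stood at 305, 314 and 186 CPM against 115, 217 and 191 CPM (0.62, SE 0.48), and overlapped through Atf3_high replicate 3. Leaving out Atf3_low replicate 1 gave *Psmd8* a fold change of 0.38. *Psmd14*, the deubiquitinase that strips ubiquitin from the substrate, ran opposite, at 61.0, 96.5 and 60.6 CPM against 175, 50.1 and 204 CPM (−0.996, SE 0.61, adjusted p = 0.964 in edgeR). Atf3_low replicates 1 and 3 were high and replicate 2 was the lowest of the 6 libraries, and leaving it out gave −1.44 at an unadjusted p of 0.0290, while leaving out Atf3_low replicate 3 gave −0.71. The remaining 7 non-ATPase genes overlapped between the groups, with fold changes from −0.29 (*Psmd6*) to 0.70 (*Psmd1*). Without Atf3_high replicate 2 the value of *Psmd6* turned to 0.15, and that of *Psmd1* was 0.24 without Atf3_high replicate 1, 0.42 without Atf3_low replicate 3 and 1.07 without Atf3_low replicate 1.

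The opposite lean of the beta ring and the non-ATPases was also compared as a ratio of raw UMIs within each library, a measure chosen after their sums were seen. Non-ATPase over beta ring UMIs came to 1.86, 1.74 and 1.45 in Atf3_high (mean 1.68 ± 0.211) and 1.01, 1.12 and 1.08 in Atf3_low (1.07 ± 0.0568). The ratio needs no normalization and was 1.57 times as high in Atf3_high, between 1.49 and 1.68 times with any library left out and 1.54 times without Atf3_high replicate 2. Without *Psmd8* and *Psmb4* the ratios were 2.42, 1.67 and 1.63 against 1.07, 1.21 and 1.70, which is 1.44 times as high in Atf3_high, but the groups overlapped. Alpha over beta ring UMIs came to 1.20, 1.08 and 0.762 against 0.813, 0.578 and 0.620, a fold of 1.52 with overlapping groups, so a higher ratio to the beta ring was not particular to the non-ATPases. Non-ATPase over ATPase UMIs came to 2.42, 2.57 and 2.33 against 1.53, 2.11 and 1.83, also apart. Regulatory particle genes over core genes of the symbol rule, immunoproteasome genes included, came to 1.11, 1.14 and 1.13 against 0.899, 0.982 and 1.01. Neither part is complete, since *Sem1* and *Adrm1* have other names and *Psmb7* had no entry. *Sem1* had 52, 12 and 61 UMIs in Atf3_high and 59, 23 and 24 in Atf3_low. With it added to the regulatory particle genes, the ratio to the core genes stayed apart only barely. With 3 libraries a group the smallest p that an exact permutation test can give is 0.1, and since the measure was picked for its difference it was given none. The cardiomyocyte marker sums also separated the groups, while the fibroblast sums overlapped, and the part of either in the ratios was not tested.

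The alternative activators bind the ends of the core in place of the regulatory particle. With the inhibitor gene *Psmf1* (PI31), their 6 genes summed to 366, 133 and 391 CPM in Atf3_high and 236, 267 and 272 CPM in Atf3_low. Atf3_high replicate 2, the library against its label, was the lowest of all, and the log2 ratio was 0.20 with it and 0.55 without it. The ratio was 0.41 with library size alone, 0.0200 without Atf3_high replicate 1 and turned to −0.0517 without Atf3_high replicate 3. *Psme3*, the nuclear activator PA28-gamma, followed the same pattern, at 168, 24.1 and 112 CPM against 53.9, 58.4 and 40.9 CPM (1.02, SE 0.68, adjusted p = 0.965 in edgeR). Replicates 1 and 3 of Atf3_high exceeded all of Atf3_low and replicate 2 fell below them, and the fold change was 1.41 without replicate 2 (unadjusted p of 0.0464) and 0.49 without Atf3_high replicate 1. *Psme4*, the activator PA200, stood at 91.5, 96.5 and 121 CPM against 121, 58.4 and 95.3 CPM (0.17, SE 0.60) and overlapped. *Psme1*, a subunit of the interferon-inducible activator PA28, stood at 71.1, 12.1 and 107 CPM against 33.7, 117 and 95.3 CPM (−0.23, SE 0.71) and also overlapped. Its partner *Psme2* had 2, 0 and 4 UMIs against 0, 0 and 2 and shares 99.4% of 794 aligned bases with *Psme2b*, which had 4, 0 and 4 against 2, 2 and 1, so counts of these 2 genes are uncertain. *Psmf1* had 1, 0 and 3 against 2, 2 and 0 UMIs.

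The assembly chaperones were the subclass with the highest log2 ratio, on few counts per gene. Their 7 genes summed to 37, 14 and 25 UMIs in Atf3_high and 17, 10 and 2 in Atf3_low, which is 188, 169 and 116 CPM (158 ± 37.1) against 115, 83.4 and 27.2 CPM (75.1 ± 44.3). The groups were apart, though the nearest pair, Atf3_high replicate 3 and Atf3_low replicate 1, stood at 116 and 115 CPM. The log2 ratio of 1.07 was 1.02 without Atf3_high replicate 2, 0.66 without Atf3_low replicate 3 and 0.73 without *Psmd5*. Without *Psmd5*, and likewise without *Psmg3*, the sums of the groups overlapped. All 5 chaperone genes tested had a positive fold change, and since all 5 reached 10 UMIs only through Atf3_high, that count is no measure of direction. The sum lacks *Pomp*, an assembly chaperone gene of another name (0.54, SE 0.62). *Pomp* stood at 112, 109 and 126 CPM against 135, 75.1 and 13.6 CPM, with overlapping groups. With *Pomp* added the chaperone sums overlapped, since Atf3_high replicate 3 fell below Atf3_low replicate 1.

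*Psmg3* encodes a chaperone of alpha ring assembly (chromosome 5, 139823592 to 139826885, minus strand, GRCm38). It had 8, 6 and 2 UMIs in Atf3_high and 1, 0 and 0 in Atf3_low, or 40.6, 72.4 and 9.32 CPM against 6.74, 0 and 0 CPM. The values did not overlap, but 0 UMIs in Atf3_low replicates 2 and 3 allow up to 23.9 and 36.6 CPM before TMM scaling, above the 9.32 CPM of Atf3_high replicate 3. The ratio of the pooled, TMM-scaled counts was 11.1, with an exact 95% counting interval of 1.72 to 464. The fitted log2 fold change of 3.40 (SE 1.45, adjusted p = 0.768 in edgeR) depends on the prior count. Without Atf3_high replicate 2 the fitted value was 2.82 at an unadjusted p of 0.0948, and without Atf3_low replicate 1, which leaves 0 UMIs in Atf3_low, it was 5.42.

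*Psmd5*, a chaperone that holds back the ATPase base until assembly is complete (chromosome 2, 34849734 to 34874968, minus strand, GRCm38), had 9, 4 and 6 UMIs in Atf3_high and 2, 0 and 0 in Atf3_low. These counts correspond to 45.7, 48.3 and 27.9 CPM against 13.5, 0 and 0 CPM. The values did not overlap, but the 36.6 CPM that 0 UMIs allow in Atf3_low replicate 3 exceed the 27.9 CPM of Atf3_high replicate 3. The pooled ratio was 6.57 (exact 95% counting interval 1.58 to 58.1). The fitted log2 fold change was 2.68 (SE 1.27, adjusted p = 0.829 in edgeR), and it was 2.57 at an unadjusted p of 0.0759 without Atf3_high replicate 2 and 5.49 without Atf3_low replicate 1, which again leaves 0 UMIs in Atf3_low. For both genes the Atf3_low group held at most 2 UMIs, so the size of the difference is poorly known even where its sign held with any library left out.

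The other assembly chaperones did not separate the groups. *Psmg1*, the partner of *Psmg2* in the chaperone pair that starts the alpha ring, had 1, 1 and 9 UMIs against 1, 1 and 1, a pooled ratio of 2.53 (exact 95% counting interval 0.669 to 14.1). *Psmg2* had 11, 0 and 1 against 5, 1 and 1 UMIs, and *Psmg4*, the partner of *Psmg3*, had 4, 3 and 3 against 8, 0 and 0. In each of these 3 genes 1 library held most of the UMIs of at least 1 group. The remaining chaperones of the ATPase base were nearly undetected: *Psmd9* had 4, 0 and 3 UMIs against 0, 1 and 0, and *Psmd10* had 0, 0 and 1 against 0, 7 and 0.

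The symbols of 2 genes carry the name of a proteasome gene only because they bind its product. *Psme3ip1*, whose protein binds PA28-gamma, had 0, 1 and 8 UMIs in Atf3_high and 8, 1 and 0 in Atf3_low, which shows no direction (−0.41, SE 1.21). *Psmc3ip*, a factor of meiotic recombination, had 1 UMI, in Atf3_low replicate 3.

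**Figure D2:**
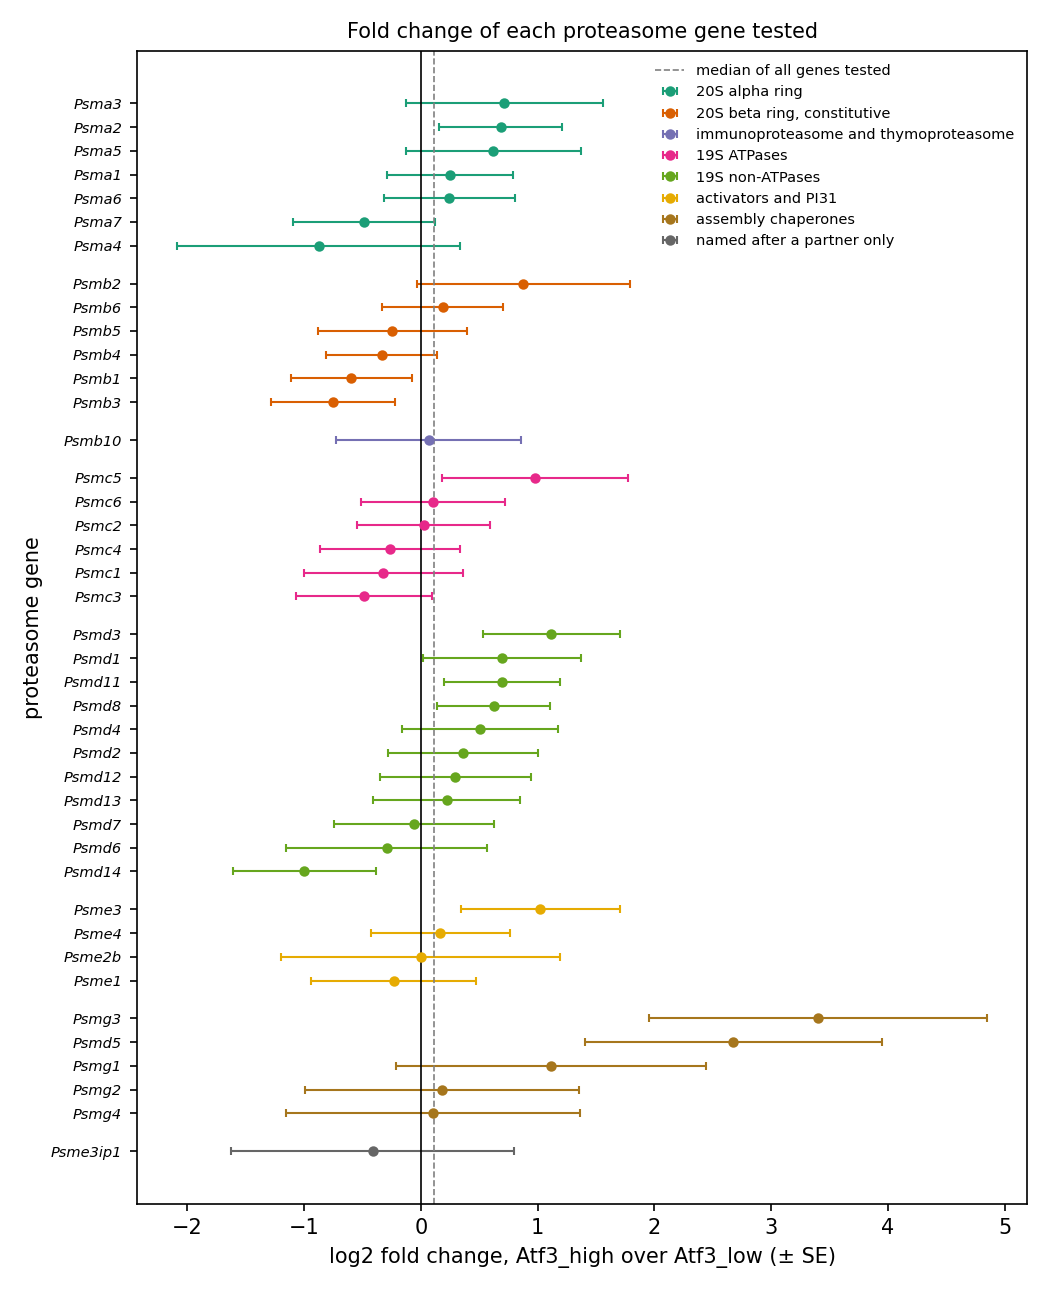
Log2 fold change, Atf3_high over Atf3_low, of the 41 proteasome genes tested, by subclass. Bars are ± 1 SE, derived from the edgeR fold change and its F statistic, and the dashed line is the median of all genes tested (0.11). The genes lie on both sides of 0, from −0.996 for Psmd14 to 3.40 for Psmg3, and the bars of sparsely counted genes, such as the assembly chaperones Psmg3 and Psmg1, are wide.

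Other genes of the ubiquitin-proteasome pathway gave no call either. Of 53 listed, 44 were tested, and 23 had a positive and 21 a negative fold change, with a median of 0.03, and 0 reached an unadjusted p of 0.05. Among proteasome genes of other names, *Akirin2*, which carries proteasomes into the nucleus, had the smallest p, at 35.6, 48.3 and 51.2 CPM against 60.6, 33.4 and 149.8 CPM (−0.78, SE 0.76), with overlapping groups. Without Atf3_low replicate 3 the value was −0.0901, and without Atf3_low replicate 2 it was −1.18. The 6 regulators of proteasome gene transcription had a median of 0.19, which turned to −0.47 with the filterByExpr filter, −0.0624 without Atf3_high replicate 1 and −0.20 without Atf3_low replicate 2. It was 0.0718 without Atf3_high replicate 3, 0.75 without Atf3_low replicate 1 and 0.41 without Atf3_low replicate 3. Their sums of 534, 434 and 447 CPM against 573, 559 and 368 CPM overlapped. *Ddi2*, the protease that activates Nfe2l1, stood at 50.8, 72.4 and 97.8 CPM against 13.5, 66.7 and 13.6 CPM (1.18, SE 0.82), where only Atf3_low replicate 2 reached into the range of Atf3_high. Its fold change was 2.36 without that library (unadjusted p of 0.0340) and 0.76 without Atf3_low replicate 1. The 5 ubiquitin and E1 genes tested all had a positive fold change (median 0.31). That median was 0.20 without Atf3_high replicate 1, 0.49 without Atf3_high replicate 2 and 0.19 without Atf3_low replicate 3. The gene of smallest p was the ubiquitin fusion gene *Rps27a* (0.53, SE 0.66). It stood at 96.5, 96.5 and 79.2 CPM against 87.6, 41.7 and 54.5 CPM. Its fold change was 0.92 without Atf3_low replicate 1 and 0.27 without Atf3_low replicate 2.

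For shuttle and segregase genes the median was −0.13. Its sign turned in limma-trend (0.26), the block on replicate number (0.0435), the filterByExpr filter (0.16) and library size alone (0.0848). It also turned without Atf3_high replicate 1 (0.16) or 3 (0.0797) and without Atf3_low replicate 1 (0.33) or 3 (0.14). *Ubqln4*, a shuttle of ubiquitinated proteins, stood at 35.6, 84.5 and 27.9 CPM against 6.74, 25.0 and 13.6 CPM (1.58, SE 1.05). Its groups were apart, on 7, 7 and 6 UMIs against 1, 3 and 1, so that it reached 10 UMIs only through Atf3_high. Without Atf3_high replicate 2 the fold change was 1.05. For muscle and quality control ligases the median was −0.26, with 6 positive and 10 negative, and it was 0.0758 with the filterByExpr filter and from −0.52 (without Atf3_high replicate 3) to 0.23 (without Atf3_low replicate 2) with a library left out. *Fbxo40*, a muscle ubiquitin ligase subunit with the smallest p of the pathway list, stood at 234, 507 and 293 CPM against 175, 234 and 123 CPM (0.91, SE 0.47, adjusted p = 0.905 in edgeR). The nearest values of its groups were both 234 CPM, and without Atf3_high replicate 2 the fold change was 0.55.

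The promoters of the genes were searched for short motifs in windows of 300 bases, 250 before to 50 after the gene start, from RefSeq (GRCm38.p6). Of the 50 genes, 43 matched, with 47 windows. The core of the antioxidant response element, to which Nfe2l1 and Nfe2l2 bind (TGACNNNGC, either strand), was in 6 of the 47 windows (12.8%), against 12.4% of all 32851 windows. The cAMP response element (TGACGTCA, either strand), a site of Atf3 and related factors, was in 0 of the 47, against 1.79% of all windows, and the AP-1 site (TGACTCA, either strand) in 1 (*Psmd9*), against 5.20%. The share of windows with the antioxidant core was thus about that of all genes. The 6 matches are printed because they belong to genes of the core, regulatory particle, activators and chaperones described above, 5′ to 3′ along the gene with up to 15 bases on either side, the matched letters in capitals.
*Psmb5*, chr14:54618019-54618057, minus strand: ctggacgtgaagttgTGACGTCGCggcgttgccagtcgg
*Psmb6*, chr11:70525333-70525371, plus strand: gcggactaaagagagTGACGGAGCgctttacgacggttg
*Psmc6*, chr14:45329582-45329620, plus strand: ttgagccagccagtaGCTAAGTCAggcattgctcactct
*Psmd12*, chr11:107479278-107479304, plus strand: tctGCTGTGTCAcatttgcccccctca
*Psmd9*, chr5:123228144-123228182, plus strand: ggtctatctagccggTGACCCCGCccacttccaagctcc
*Psme4*, chr11:30771753-30771791, plus strand: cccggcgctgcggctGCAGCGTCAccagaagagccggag
The matches in *Psmc6*, *Psmd12* and *Psme4* read on the opposite strand. A match is a string of letters only. Of these 6 genes none was called, and *Psmd9* was not tested.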

How the data were processed

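The UMI counts per gene and library were used as deposited by the authors, who aligned paired-end CEL-seq2 reads (NovaSeq6000) to GRCm38 with HISAT2 2.1.0. Their notes also name UMI-tools 1.0.0 and featureCounts 1.6.4, without settings, and give no annotation release, strand setting or treatment of multi-mapping reads. Genes with at least 10 UMIs over the 6 libraries were fitted in edgeR 4.0.16 (R 4.3.3) with TMM factors and a quasi-likelihood test, and p-values were adjusted over all 7665 by Benjamini-Hochberg. Each SE was derived as the absolute log2 fold change divided by the square root of the F statistic of that test. The fit was first run on simulated counts with a common dispersion for all genes and known changes in some. That run does not show how the fit performs on these data, where dispersions may differ by gene. Alternatives were DESeq2 1.42.0, limma-trend 3.58.1, other scalings and filters, near-identical copies summed, a replicate block and leaving out each library. Copies were found with BLAST+ 2.17.0. The rule for the genes to name takes those past adjusted p 0.05, the 5 of smallest p in each direction, those with groups apart, the most abundant of each subclass, the catalytic pairs with Psme1 and Psme2, those under 10 UMIs, and the gene of smallest p in each further list. Psma5, Psmd1, Psmd6, Psme2b, Psmg1, Psmg2 and Psmg4 were added after their values were seen. Members and lists were chosen with earlier results of these data known.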

Additional observations from a re-analysis of the deposited data

Results flagged for a closer look

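A processed pseudogene of the alpha ring gene *Psma5*, *Psma5-ps*, lies outside the protein-coding genes described and had 8 UMIs over the 6 libraries, above the limit of 3 UMIs that a count of 0 allows. The UMIs were 4, 0 and 0 in Atf3_high and 4, 0 and 0 in Atf3_low, so 1 library of each group held them. With the counts of near-identical copies added to their genes, 7 of all genes and 0 of the proteasome genes passed the adjusted threshold in edgeR, and 2 proteasome genes had an unadjusted p under 0.05.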

How the results depend on the processing

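Under the 14 alternatives (edgeR settings, DESeq2 and limma-trend), no proteasome gene that got an adjusted p passed the threshold, but DESeq2 gave none to 22 of the 41 and filterByExpr kept 27. The smallest adjusted p was 0.444 (*Psmg3* without Atf3_high replicate 3). Among 525 fold changes of proteasome genes under these alternatives, 485 had the same sign and 40 were reversed, over 21 genes, while 20 genes had none reversed. Where a value moved, the cause was not tested.

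Of all genes, 12 were called by DESeq2, 3 by limma-trend and 24 with the replicate number as a block, and 1 to 18 with a library left out. At an unadjusted p under 0.05, 1 proteasome gene was higher in each of DESeq2 (*Psmg3*), the filterByExpr filter (*Psmd3*) and the block fit (*Psmg3*). With a library left out, 0 to 4 were higher and 0 to 1 lower. The labels state no pairing of samples that share a replicate number, and the 2 samples numbered 2 differ in sex by their counts.

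Library size alone gave a median log2 fold change of 0.39 for the proteasome genes, and log2 ratios of sums of 0.14 for the ATPases, 0.58 for the non-ATPases, −0.0707 for the beta ring and 0.36 for all proteasome genes. The sum of the immunoproteasome genes without *Psmb10* had a log2 ratio of 2.12. Leaving out the most abundant gene gave no value for the genes named after a partner only.

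Reversed by a scaling, filter or tool were *Psmd7* (0.14 with library size alone, 0.0224 with no filter), *Psme2b* (0.20 and 0.0741) and *Psmg2* (−0.66 in limma-trend, −0.31 in the block fit).

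With a library left out, the log2 fold change ranged in the alpha ring from −0.23 to 1.21 for *Psma1*, −0.43 to 2.30 for *Psma5*, −0.0803 to 0.41 for *Psma6* and −0.99 to 0.11 for *Psma7*. In the beta ring it ranged from −0.63 to 0.15 for *Psmb4* and −0.17 to 0.58 for *Psmb6*. For the immunoproteasome gene *Psmb10* it ranged from −0.55 to 0.65. Among the ATPases it ranged from −0.66 to 0.0356 for *Psmc1*, −0.32 to 0.46 for *Psmc2* and −0.21 to 0.35 for *Psmc6*. Among the non-ATPases it ranged from −0.0296 to 0.64 for *Psmd2*, −0.85 to 0.15 for *Psmd6*, −0.36 to 0.24 for *Psmd7* and −0.0367 to 0.39 for *Psmd13*. Activators ranged from −0.78 to 0.16 for *Psme1*, −0.33 to 0.39 for *Psme2b* and −0.10 to 0.46 for *Psme4*. Assembly chaperones ranged from −0.21 to 1.58 for *Psmg1*, −2.31 to 1.01 for *Psmg2* and −0.51 to 4.66 for *Psmg4*. Outside these subclasses, *Psme3ip1* ranged from −2.19 to 1.63 and *Ifit3* from −1.12 to 6.90.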

Other observations

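Limits of these data concern depth, animals and counting. The smallest library held 81117 UMIs, and 9 of the 50 proteasome genes had too few UMIs to test. The labels name no animals, 1 library went against its sex label, and cells of several types were present. All libraries carry the knockdown, so no value compares it with wild type. Near-identical copies of 13 proteasome genes exist in the annotation, 8 with a copy in the count table, and how reads with several matches were counted is not stated. Transcript levels say nothing of proteasome protein or activity, which were not analysed here.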
